A study of Rattus norvegicus with 8 samples.

Results

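The mitochondrially encoded subunits of complex I are 7 genes of the 32883 in the deposited count table: Mt-nd1, Mt-nd2, Mt-nd3, Mt-nd4, Mt-nd4l, Mt-nd5 and Mt-nd6. They were chosen because they encode parts of the same enzyme, by their Ensembl rat identifiers: ENSRNOG00000030644 (Mt-nd1), ENSRNOG00000031033 (Mt-nd2), ENSRNOG00000033615 (Mt-nd3), ENSRNOG00000029707 (Mt-nd4), ENSRNOG00000031053 (Mt-nd4l), ENSRNOG00000029971 (Mt-nd5) and ENSRNOG00000029042 (Mt-nd6). The family was taken up after the difference of Mt-nd6 between trained and untrained libraries had been seen, so the values of that comparison are given below as a description. All 7 genes had at least 1 UMI (unique molecular identifier, a random tag that lets copies of a captured molecule be counted once), and 6 of them had enough counts for the fit across genes.

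RNA came from the lower spinal cord of outbred Sprague Dawley rats, 23 days after a hemisection at T9. The study asked what training after the injury does to gene expression in the uninjured cord below it. Every rat carried the injury. The untrained group received no training, and each group has 4 libraries, numbered 1 to 4 in the titles. The kind of training, the ages and how many animals stand behind a library are not stated in the labels, so the spread between libraries may be partly technical. The table lists genes by identifier alone, so the labelled tissue could not be checked against the markers of its cell types.

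Complex I, or NADH:ubiquinone oxidoreductase, is the entry point of the respiratory chain. It takes electrons from NADH, passes them to ubiquinone and pumps protons across the inner mitochondrial membrane, which drives ATP synthesis in neurons and glia. The 7 mitochondrial genes encode the hydrophobic core of its membrane arm, and the remaining subunits come from nuclear genes. Mitochondrial DNA is transcribed from both strands as long precursors that are cut into single RNAs. Mt-nd6 is the only member encoded on the light strand, while the other 6 are read from the heavy-strand promoter. Mt-nd4l and Mt-nd4 share a messenger RNA. In human cells the ND6 messenger has no or little poly(A) tail, the feature by which 3′-end methods such as CEL-Seq2 capture RNA.

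The 8 libraries held between 192472 and 453390 UMIs, a 2.36-fold range, with a mean ± SD of 360994 ± 88541 for the 4 untrained and 255630 ± 97444 for the 4 trained ones. The members together took 103752 of all 2466495 UMIs, or 4.21%. Trained replicate 1 was the deepest trained library (400934 UMIs), and the other 3 trained libraries were shallower than every untrained one. In these whole-tissue samples, a lower count from fewer cells of a type and from less RNA per cell cannot be told apart.

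Mt-nd1 and Mt-nd3 lie where the membrane arm meets the arm that carries the electrons, Mt-nd1 next to the ubiquinone site. Mt-nd1 had 3891, 3972, 3881 and 4002 UMIs in untrained replicates 1 to 4 and 3894, 3738, 3822 and 3659 in trained ones. All 8 values lay within a 1.09-fold range although the libraries differed 2.36-fold in depth, and the groups overlapped. Mt-nd3 had 1595, 1351, 1525 and 1329 UMIs in untrained and 1672, 910, 1363 and 939 in trained libraries. Its highest and lowest values were both in trained libraries, replicates 1 and 2.

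Mt-nd2, Mt-nd4 and Mt-nd5 encode the antiporter-like subunits, which form the proton channels. Mt-nd2 had 3120, 2924, 3023 and 3533 UMIs in untrained and 3417, 2302, 2453 and 2955 in trained libraries. Mt-nd4 had 3497, 3464, 3787 and 3933 in untrained and 3349, 2859, 3690 and 3493 in trained libraries. The lowest count of each lay in trained replicate 2 and the highest in untrained replicate 4, the deepest library. Mt-nd5 had 1406, 1312, 1215 and 1783 UMIs in untrained and 1503, 933, 974 and 1025 in trained libraries. Its count was below every untrained one in 3 of the 4 trained libraries and above 3 of the 4 in trained replicate 1.

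Mt-nd4l encodes a small subunit that packs against the Mt-nd6 product. It was hardly counted, with 3, 1, 0 and 1 UMIs in untrained and 1, 0, 0 and 1 in trained libraries, 7 UMIs in all. A count of 0 allows up to 13.8 CPM (a count divided by its library total and put on a common scale) in trained replicate 2, 15.6 in trained replicate 3 and 12.5 in untrained replicate 3. Pooled over libraries, Mt-nd4l stood at 3.46 CPM in untrained (exact Poisson 95% interval 1.12 to 8.08) and 1.96 CPM in trained libraries (0.237 to 7.07). The ratio of trained to untrained was 0.565 with an interval from counting of 0.0538 to 3.45, so a difference of several-fold in either direction was not detectable at this depth. Reads that overlap both Mt-nd4l and Mt-nd4 may be left out by gene counting, and the labels do not record how they were treated.

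Mt-nd6 encodes a subunit of the membrane arm between those of Mt-nd1 and Mt-nd2. It had 15, 5, 4 and 26 UMIs in untrained replicates 1 to 4 and 119, 3, 6 and 74 in trained ones. Trained replicates 1 and 4 stood above every other library, while trained replicates 2 and 3 had 3 and 6 UMIs, near the lowest untrained counts. The level in untrained libraries was also highest in replicates 4 and 1. The labels do not record whether the counting used strand, and without strand, reads from Mt-nd6 and from heavy-strand RNA of the same place cannot be told apart.

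**Figure D1:**
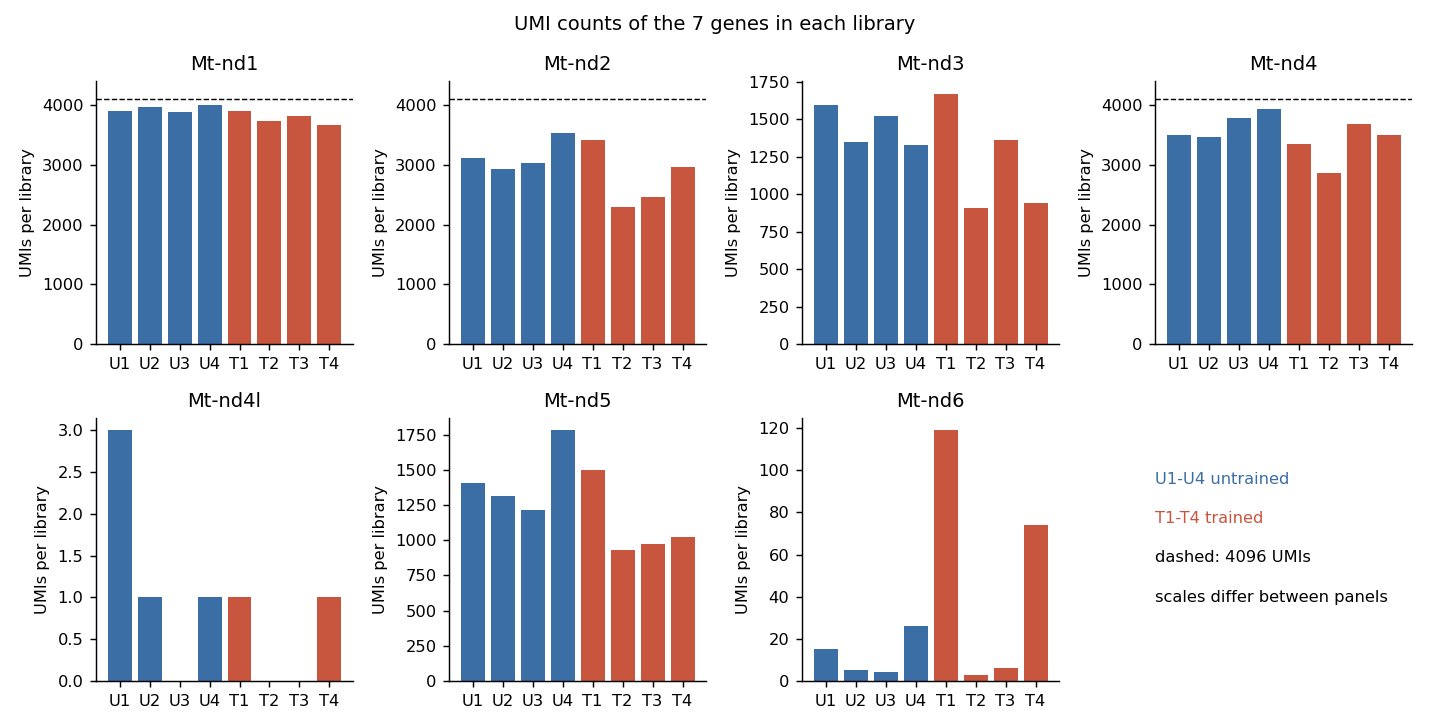
UMIs of each gene (vertical axes from 0, scales differ) in the 4 untrained (U1 to U4) and 4 trained libraries (T1 to T4); the dashed line marks the number of different 6-base UMIs. Mt-nd1 lies just under the line in all 8 libraries, Mt-nd4l has at most 3 UMIs, and Mt-nd6 stands out in T1 and T4.

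The counts of 3 members came near an upper limit, for Mt-nd1 in all libraries and for Mt-nd4 and Mt-nd2 in some. No count in the table exceeded 4049, just under the number of different tags that a UMI of 6 bases can make, and a count that nears this ceiling no longer follows the number of molecules. Mt-nd1 filled 89.3% to 97.7% of the ceiling, Mt-nd4 69.8% to 96.0% and Mt-nd2 56.2% to 86.3%. Mt-nd3 filled 22.2% to 40.8% and Mt-nd5 22.8% to 43.5%, and Mt-nd6 at most 2.91%. The members therefore differ in how far their counts can show a change.

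How a count follows depth was described by the slope of its log2 value on the log2 library total over the 8 libraries, where a slope of 1 means a constant share. The slope was 0.07 for Mt-nd1, 0.07 for Mt-nd4, 0.35 for Mt-nd2, 0.38 for Mt-nd3 and 0.63 for Mt-nd5. Genes with a mean of 500 to 1500 UMIs, the class of Mt-nd3 and Mt-nd5, had a median slope of 0.94 (55 genes). Mt-nd3 and Mt-nd5 thus had a lower slope than the median gene of their class, although their counts reached at most 43.5% of the ceiling. The shallowest libraries were all trained, so in a slope over all 8 libraries a slope under 1 and a higher share in trained libraries cannot be told apart. Depth also differed within the untrained group, from 240895 UMIs in replicate 3 to 453390 in replicate 4. In these 2 libraries Mt-nd3 had 1525 and 1329 UMIs, and Mt-nd5 1215 and 1783. A slope within a group was not tested. The slope of Mt-nd6 was 1.54, but its counts did not move with depth in any simple way, since trained replicate 4, with 212328 UMIs in all, had 74 and untrained replicate 2, with 365523, had 5.

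The counts were also corrected for the ceiling, by the number of molecules expected to fill that many of the available tags. This assumes a UMI of 6 bases, a length the labels do not give. The correction raised Mt-nd1 by a factor of 2.51 to 3.86, to between 9166 and 15460 molecules, and Mt-nd4 by 1.72 to 3.36, to between 4904 and 13206. The sampling error of such a corrected value is larger than that of a count, at 15460 ± 399 (SE) for Mt-nd1 in untrained replicate 4. Mt-nd2 rose by 1.47 to 2.30, Mt-nd3 by 1.13 to 1.29 and Mt-nd5 by 1.13 to 1.31, and Mt-nd6 by at most 1.01. After the correction the slopes were 0.41 for Mt-nd1, 0.23 for Mt-nd4, 0.72 for Mt-nd2, 0.46 for Mt-nd3 and 0.77 for Mt-nd5, all still under 1. The share of the members in the library, 3.22% to 6.39% as deposited, became 6.63% to 11.4%.

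**Figure D2:**
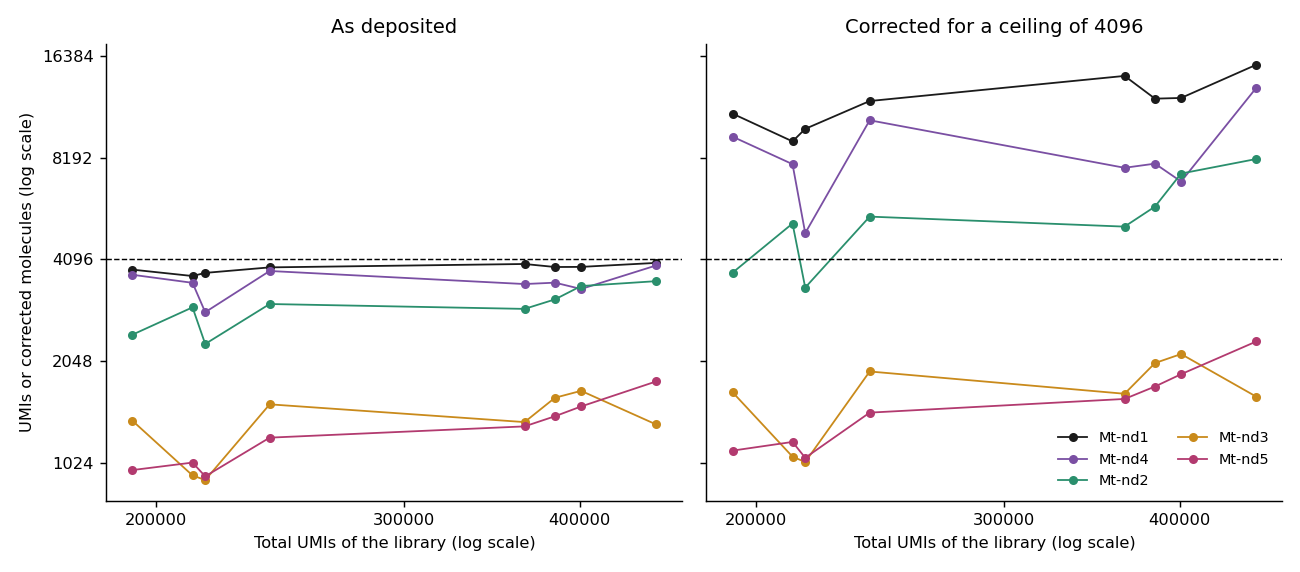
Count of 5 heavy-strand genes against the total UMIs of the library, both on log2 axes, as deposited (left) and corrected for the ceiling (right; the dashed line marks the ceiling); each point is a library. As deposited, Mt-nd1 and Mt-nd4 are nearly flat (slopes of 0.07), and after correction Mt-nd1 rises with a slope of 0.41 and Mt-nd4 with 0.23.

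In the comparison of trained with untrained libraries, all 6 fitted members had a positive fold change, and 0 of the 6 passed the threshold in the test of all 4 against 4 libraries. Over all genes 0 of 4086 passed (0% called; edgeR quasi-likelihood test at an adjusted p of 0.05), as in DESeq2 and limma-voom, and 52 genes, 1 of them a member, had an unadjusted p under 0.05. Same-numbered libraries deviated together, and with the replicate number as a block in edgeR, which compares libraries within their number, 1 of 6 members passed, Mt-nd6, against 2 of 4086 genes (0.0489% called). As the family was chosen on this contrast, the count has no weight of its own. The median log2 fold change was 0.45 over the 6 members and 0.41 over the fitted heavy-strand ones, without Mt-nd6. Over the 4086 genes it was 0.01, and 51.8% of them were positive. The scaling of the libraries sets most genes level, so a median near 0 over all genes was given in advance.

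Levels are given from here on as CPM on totals scaled by TMM (a factor per library that sets most genes level), as mean ± SD over the 4 libraries of a group, and log2 fold changes with their SE. Mt-nd1 averaged 12213 ± 4292 CPM without and 18029 ± 5811 CPM with training, and its log2 fold change was 0.56 ± 0.30. Mt-nd4 averaged 11444 ± 4416 and 16130 ± 6074 CPM, a log2 fold change of 0.50 ± 0.32. Mt-nd2 averaged 9681 ± 3147 and 12838 ± 3330 CPM, a log2 fold change of 0.41 ± 0.27. For each of these 3 genes, and for Mt-nd3 and Mt-nd5, the raw counts of trained libraries were lower on average (1221 against 1450 UMIs for Mt-nd3), and the higher CPM came with a smaller total by which they were divided.

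Mt-nd3 and Mt-nd5, farther from the ceiling, differed less. Mt-nd3 averaged 4558 ± 1875 CPM without and 5571 ± 1886 CPM with training, and its log2 fold change was 0.29 ± 0.29. Mt-nd5 averaged 4289 ± 1004 and 5014 ± 956 CPM, and its log2 fold change was 0.23 ± 0.23. The 95% interval of all 5 heavy-strand members included 0, and its upper end lay between 0.71 for Mt-nd5 and 1.20 for Mt-nd1. With the replicate block the estimates hardly moved, from 0.23 to 0.55, and the intervals were narrower, 0.09 to 1.01 for Mt-nd1 and 0.02 to 0.92 for Mt-nd4, without adjustment over genes.

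On corrected counts the fold changes of the 5 heavy-strand members drew together. They were 0.28 for Mt-nd1, 0.24 for Mt-nd2, 0.24 for Mt-nd3, 0.23 for Mt-nd4 and 0.15 for Mt-nd5, with standard errors of 0.23 to 0.38, and every interval included 0 with and without the block. For Mt-nd1 and Mt-nd4 this compares with 0.56 and 0.50 on the deposited counts, while Mt-nd6 stayed at 2.49. The median was 0.24 over the 6 members and 0.24 over the 5 heavy-strand ones, beside 0.01 over all genes.

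**Figure D3:**
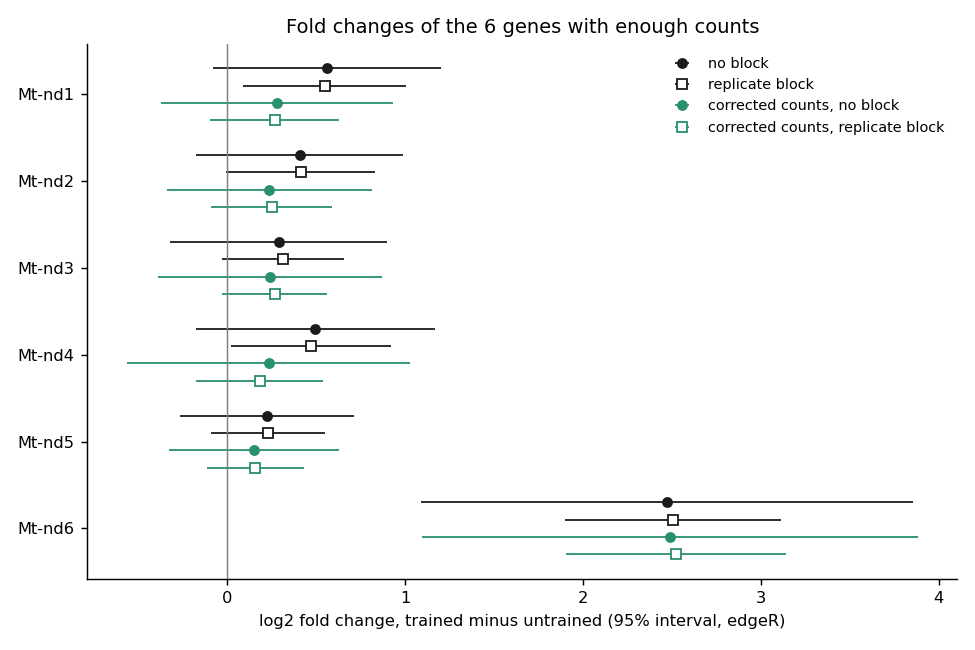
Log2 fold change of trained minus untrained libraries with its 95% interval from edgeR, for the 6 fitted genes, as deposited (black) and corrected for the ceiling (green), without (filled circles) and with the replicate block (open squares). The 5 heavy-strand genes lie between 0.15 and 0.56, and Mt-nd6 between 2.47 and 2.52.

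No member separated the groups. For 0 of the 6 did all 4 trained libraries lie above all 4 untrained ones, against 0.489% of all genes, and for 0 below, against 0.612%. Mt-nd2, Mt-nd3, Mt-nd5 and Mt-nd6 were higher in the trained library in all 4 same-numbered pairs, as were 5.7% of all genes, and 0 members were lower in all 4, as were 6.29%. On corrected counts Mt-nd3 and Mt-nd6 were higher in all 4 pairs. As the family was chosen on this contrast, the count of such members has no weight of its own. Some of the differences were slight. Mt-nd6 in replicate 2 had 15.4 CPM with and 14.2 CPM without training, on 3 and 5 UMIs. Mt-nd3 in replicate 1 differed by 0.008 on the log2 scale. The pair differences of the heavy-strand members on the log2 scale ran from -0.12 for Mt-nd4 to 0.07 for Mt-nd2 in replicate 1. For each of the 5 genes they were largest in replicate 4, from 0.48 for Mt-nd5 to 1.15 for Mt-nd1. Replicate 1 is the pair of like depth, with 384167 and 400934 UMIs, and replicate 4 the pair of most unlike depth, with 453390 and 212328. In the latter pair the corrected differences were 0.30 for Mt-nd5 to 0.70 for Mt-nd3, and what part depth has in them was not tested.

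Mt-nd6 averaged 32.6 ± 19.98 CPM without and 187 ± 191 CPM with training (SD, n = 4 each), so that in trained libraries the SD was as large as the mean. Trained replicate 4 had 398 CPM, with an exact Poisson 95% interval of 313 to 500, and trained replicate 1 had 299 CPM, with 248 to 358. Trained replicates 2 and 3 had 15.4 CPM (3.18 to 45.1) and 36.8 CPM (13.5 to 80.0). The intervals cover counting error only. Trained replicates 2 and 3 thus lay in the range of the untrained libraries, 14.2 to 57.7 CPM, and trained replicates 1 and 4 above it.

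The difference in Mt-nd6 was larger in replicates 1 and 4 than in replicates 2 and 3. Per library total, the trained library had 7.60 times the Mt-nd6 UMIs of the untrained one in replicate 1 (95% interval from counting 4.43 to 14.0) and 6.08 times in replicate 4 (3.84 to 9.90). In replicate 2 the ratio was 1.01 (0.157 to 5.20) and in replicate 3 it was 1.88 (0.445 to 9.05). Replicates 1 and 4 held 193 of the 202 Mt-nd6 UMIs of the trained group and 41 of the 50 of the untrained group. In replicates 2 and 3 together each group had 9 UMIs, but from libraries of unlike depth, so equal counts are not equal levels. The totals of these replicates were 216786 and 192472 UMIs in trained and 365523 and 240895 in untrained libraries. The log2 fold change fitted by edgeR over all 8 libraries was 2.47 ± 0.66 (SE) without the block and 2.51 ± 0.29 with it. In limma-voom without the block it was 1.74 ± 0.86. Without replicate 1 the call made with the block ended, at 2.22 ± 0.40.

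Set against the heavy-strand genes of the same library, Mt-nd6 varied in the same way. For 10000 UMIs of the 6 heavy-strand members there were 11.1, 3.84, 2.98 and 17.8 UMIs of Mt-nd6 in untrained replicates 1 to 4 and 86.0, 2.79, 4.88 and 61.3 in trained ones. The log2 ratio of Mt-nd6 to the heavy-strand sum was -10.41 ± 1.16 without and -9.17 ± 2.41 with training (SD, n = 4 each). The difference of 1.24 was smaller than the spread within the trained group. Within pairs it was 2.91, -0.37, 0.66 and 1.76 for replicates 1 to 4, so replicate 2 went the other way. Without trained replicate 1 the difference was 0.47, and without trained replicate 4 it was 0.63.

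The difference in this ratio was of like size when genes near the ceiling were set aside. Against Mt-nd3, Mt-nd4l and Mt-nd5 alone, the 3 heavy-strand members farthest below the ceiling, the difference was 1.42, and with all counts corrected it was 1.46. The log2 ratio of Mt-nd6 to Mt-nd1, Mt-nd2, Mt-nd3, Mt-nd4 or Mt-nd5 alone was higher in the trained library in 3 of 4 pairs each. These ratios share the counts of Mt-nd6, so their likeness has no weight of its own. As deposited, the UMIs of Mt-nd6 ranged 39.7-fold over the libraries, from a low end of 3 UMIs. Those of the fitted heavy-strand genes, without Mt-nd4l, ranged 1.09-fold (Mt-nd1) to 1.91-fold (Mt-nd5), where the ceiling narrows the range. On corrected counts the range was 40.2-fold for Mt-nd6 and 1.69-fold (Mt-nd1) to 2.69-fold (Mt-nd4) for the fitted heavy-strand genes. The mean difference in the ratio was 1.15 to 1.46 as deposited. Mt-nd5, the heavy-strand gene next to Mt-nd6 in the mitochondrial genome, gave 1.46.

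**Figure D4:**
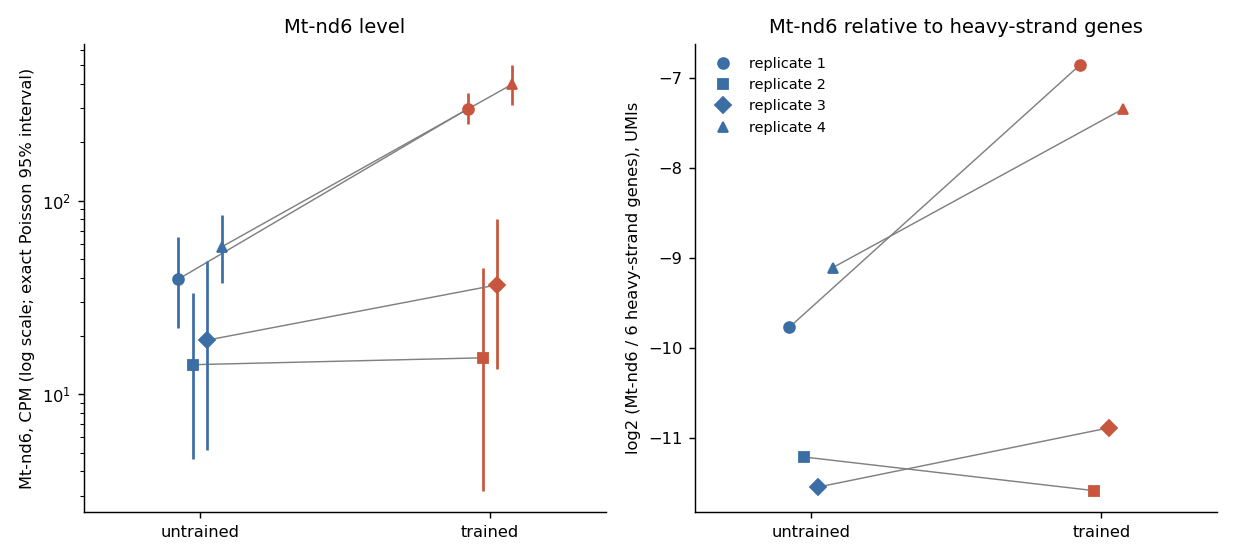
Left, Mt-nd6 in CPM on a log10 axis with exact Poisson 95% intervals; right, log2 ratio of Mt-nd6 UMIs to the sum of the 6 heavy-strand genes; grey lines join libraries of the same number. Replicates 1 and 4 have 39.3 and 57.7 CPM without and 299 and 398 CPM with training, while replicates 2 and 3 lie between 14.2 and 36.8 CPM.

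Over the 8 libraries the SD of the log2 CPM of Mt-nd6 was 1.66, including the difference between the groups. Within the trained libraries alone it was 2.06, and within the untrained ones, with a mean of 12.5 UMIs, it was 0.74. At the 3 to 6 UMIs of replicates 2 and 3 counting error is a part of this spread. Over the 8 libraries Mt-nd5 had an SD of 0.30 and Mt-nd3, at like counts, one of 0.49.

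Across the groups, most heavy-strand members had the same highest replicate number but not the same lowest. In untrained libraries replicate 3 had the highest CPM of all 5 fitted heavy-strand genes, at 1.53 to 1.99 times the mean of the other 3 libraries, and in trained libraries it was the highest for 4 of 5, at 1.24 to 1.80 times. Mt-nd2 was the exception, highest in trained replicate 4. Replicate 3 was the shallowest library of each group, with 240895 and 192472 UMIs. The lowest CPM lay in untrained replicate 4 for Mt-nd1 to Mt-nd4 and untrained replicate 1 for Mt-nd5. In trained libraries it lay in replicate 1 for all 5 genes. Untrained replicate 4 and trained replicate 1 were the deepest of their groups, with 453390 and 400934 UMIs. What part depth has in this was not tested. On corrected counts replicate 3 was again the highest for 5 and 4 of the 5 genes. It stood at 1.46 to 2.12 times the mean of the others in untrained and 1.08 to 2.05 times in trained libraries. The lowest corrected CPM lay in untrained replicate 4 for Mt-nd3 only, in replicate 1 for Mt-nd1 and Mt-nd4, and in replicate 2 for Mt-nd2 and Mt-nd5. In trained libraries the lowest lay in replicate 1 for Mt-nd1, Mt-nd4 and Mt-nd5 and in replicate 2 for Mt-nd2 and Mt-nd3. Mt-nd6 did not share the high values of replicate 3. Its CPM was highest in replicate 4 and lowest in replicate 2 in both groups. The low end rests on 5 UMIs in replicate 2 against 4 in replicate 3 in untrained, and 3 against 6 in trained libraries. In each group the counting intervals of replicates 2 and 3 overlapped, as did those of replicates 1 and 4.

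Ratios between heavy-strand members take out what is common to a library. Of the 10 ratios among the 5 fitted genes, 2 are described, picked after their values were seen. The log2 ratio of Mt-nd5 to Mt-nd3 was -0.18, -0.04, -0.33 and 0.42 in untrained replicates 1 to 4 and -0.15, 0.04, -0.48 and 0.13 in trained ones. In both groups replicate 3 was the lowest, then 1, then 2, and replicate 4 the highest, on counts of 910 to 1783 UMIs. The mean distance between same-numbered libraries was 0.14, against a range of 0.91 over the 8 libraries. The mean difference between trained and untrained libraries was -0.09, within the SD of 0.33 in the untrained group. Not all of the 10 ratios lay this close by number. For Mt-nd5 to Mt-nd1 as deposited the mean distance was 0.37, against a range of 0.84, with Mt-nd1 near the ceiling. On corrected counts it was 0.16 against 0.60 for this ratio, and 0.19 against 0.47 for Mt-nd5 to Mt-nd2.

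The log2 ratio of Mt-nd4 to Mt-nd1 was read on corrected counts, as both genes lay near the ceiling. It was -0.64, -0.90, -0.19 and -0.23 in untrained and -0.82, -1.03, -0.23 and -0.22 in trained replicates 1 to 4. Replicates 3 and 4 of both groups lay within 0.04 of each other, while replicates 1 and 2 were lower. As deposited the same ratio ran only from -0.39 to -0.03, again with replicates 3 and 4 above 1 and 2 in both groups. What the numbers mark is not recorded in the labels.

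**Figure D5:**
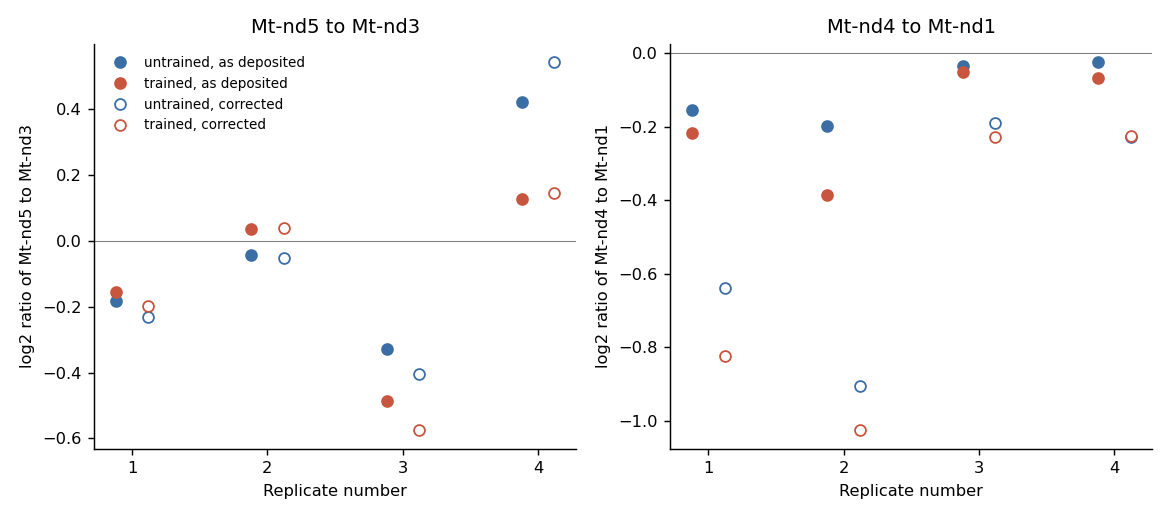
Log2 ratio of Mt-nd5 to Mt-nd3 (left) and of Mt-nd4 to Mt-nd1 (right) by replicate number, in untrained (blue) and trained (red) libraries, as deposited (filled) and corrected for the ceiling (open). These ratios were picked after their values were seen. For Mt-nd5 to Mt-nd3 replicate 3 is lowest (-0.33 and -0.48 as deposited) and replicate 4 highest (0.42 and 0.13) in both groups.

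Of the 2620 other genes with a mean of at least 20 UMIs, those most like Mt-nd6 over the 8 libraries were ENSRNOG00000007304 (Pearson r of log2 CPM 0.88, Spearman rho 0.90) and ENSRNOG00000016896 (0.87 and 0.83). Their own range was far smaller than that of Mt-nd6, with 87.5 to 172 CPM for ENSRNOG00000007304 and 262 to 446 CPM for ENSRNOG00000016896. Most like the mean of the 5 heavy-strand members were ENSRNOG00000043866 (r 0.98, rho 0.93) and ENSRNOG00000031979 (r 0.98, rho 0.98). Both lay near the ceiling as well, with means of 3936 and 3518 UMIs. On corrected counts 2 other genes stood nearest, at r 0.98 and 0.97. These points share libraries and depth, and the likeness is a description.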

How the data were processed

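The authors deposited raw UMI counts for 32883 Ensembl genes and 8 libraries, made by CEL-Seq2 per the labels' protocols. The submitters' processing notes name HISAT2 2.0.4, HTSeq 0.6.0 and the build Rnor_6.0. UMI length, UMI collapsing and strand setting are not stated there. The members and lists were chosen with earlier results of these data known, and lists that need gene symbols (nuclear subunits, assembly factors, cell type markers) were not used here, as the table holds identifiers only. All 7 members are named, and besides them the 2 genes most like Mt-nd6 and the 2 most like the heavy-strand mean.

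Counts were filtered with filterByExpr (minimum count 10 in 4 libraries), which left 4086 genes, and scaled with TMM, the trimmed mean of M values. The test was the quasi-likelihood test of edgeR 4.0.16 in R 4.3.3 over all 8 libraries, with Benjamini-Hochberg adjustment over all genes and a threshold of 0.05. SEs are the fold change over the square root of F. DESeq2 1.42.0, limma 3.58.1, other scalings and filters, corrected counts, left-out libraries and the replicate block were alternatives. Fits were tested on simulated data. For the pairing, deviations from group means of same-numbered libraries correlated at 0.30 to 0.53 across genes in all 4 pairs, with at most 0.27 for other pairs. The numbers were therefore taken to pair the libraries, on evidence from the data and not the labels. Depth was 192472 to 453390 UMIs per library. Log2 CPM used a prior count of 2.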

Additional observations from a re-analysis of the deposited data

Results flagged for a closer look

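Of 36 group-wise sets of 4 values, 6 held one whose gap to its nearest neighbour took up most of the range (Dixon's 95% limit), where chance gives about 1 in 20 sets. The sets are not independent, since the heavy-strand genes share libraries. Untrained replicate 3 was high among untrained libraries for Mt-nd2 (14393 CPM), Mt-nd4 (18031 CPM) and Mt-nd5 (5785 CPM), and the members took 5.58% of its UMIs. It is the shallowest untrained library. On corrected counts these 4 did not stand out, while Mt-nd3 in trained replicate 3 did, at 8508 CPM. Trained replicate 1 had a total, 400934 UMIs, well above those of its group. Mt-nd6 was not among the flagged sets in either group.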

How the results depend on the processing

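Alternatives with the block combined with median-ratio scaling, member-free library sizes or 20 UMIs in 4 libraries were chosen after seeing the data. The 5 heavy-strand log2 fold changes stayed positive in all 29 fits each, between 0.02 (Mt-nd3) and 0.83 (Mt-nd1). Without the block, 0 genes and 0 members passed under other scalings, DESeq2, limma-voom, corrected counts, 20 UMIs in 4 libraries and without any 1 library. With no filter 6 of 13048 genes passed, among them 1 of 7 members (Mt-nd6, 2.42). With the replicate block 2 of 4086 genes and 1 of 6 members passed (Mt-nd6, 2.51). Combined with the block, 1 gene passed in DESeq2 (Mt-nd6, 2.15) and 2 in limma-voom (Mt-nd6, 2.54). Mt-nd6 was the 1 gene that passed on corrected counts (2.52), with median-ratio scaling (2.50) and with member-free library sizes (2.50). In the block fit with no filter 18 of 13048 genes passed, among them 2 of 7 members (Mt-nd6 at 2.44 and Mt-nd1 at 0.51). Mt-nd1, near the ceiling, passed in no other fit. Its SE was 0.11 in that fit and 0.22 in the block fit after filtering. With the block and 20 UMIs in 4 libraries, a filter that Mt-nd6 does not pass, 0 of 2751 genes passed. Leaving out both libraries of a number gave 0 to 5 of 4086 genes and 0 to 1 of 6 members. Mt-nd6 was at 2.22, 2.68, 2.62 and 2.24 without replicates 1 to 4, and its call ended without replicate 1. In limma-voom without the block Mt-nd6 had its lowest value, 1.74 ± 0.86 (SE), with an interval of -0.09 to 3.57 that includes 0. Leaving out 1 library without the block gave Mt-nd6 1.93 to 2.93, and the difference in the ratio to the heavy-strand genes 0.47 to 2.05. Under the other settings that difference was 1.22 to 1.46, and 1.24 as the mean over pairs (replicate block). The causes were not tested. At this depth a few UMIs of Mt-nd6 in replicates 2 and 3, and 7 of Mt-nd4l, limit both genes.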
